A study of Fundulus heteroclitus with 53 samples.

Results

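The comparison described here set the livers of 5 Atlantic killifish (Fundulus heteroclitus) held under mild hypoxia against the livers of 5 control fish, all from the Scorton Creek (SC) population of Massachusetts, which is sensitive to dioxin-like chemicals. The 10 RNA-seq libraries were chosen by their labels from 30 in all, which also cover severe hypoxia in SC fish and the same 3 conditions in fish of the toxicant-adapted New Bedford Harbor (NBH) population, with 5 fish in each of 6 groups. All fish were laboratory-raised first-generation offspring of wild adults, 6 months old. The SC mild hypoxia fish were held for 6 h at 10% oxygen, the SC severe hypoxia fish for 6 h at 5% oxygen, and the SC control fish at ambient oxygen (normoxia). NBH mild hypoxia and NBH control fish had the same age, time and oxygen levels as their SC counterparts. Per the study's methods the parents were a small number of females and males, each hypoxic fish was in its own dish inside a gas chamber, and control fish were kept outside the chambers on the bench, so the oxygen level and the chamber cannot be told apart. Nothing gives a batch or the order of handling.

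The liver makes plasma proteins, stores and releases glucose, and detoxifies, and all of this costs oxygen. When oxygen falls, prolyl hydroxylases (the egln genes) stop marking the alpha subunits of hypoxia-inducible factor (HIF) for destruction by the proteasome. HIF then pairs with ARNT and switches on target genes, among them its own hydroxylases. In fish and mammals low oxygen is also known to slow protein synthesis and to disturb protein folding in the endoplasmic reticulum (ER), since disulfide bonds are formed there with oxygen as the last electron acceptor.

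The count tables listed 34089 genes, of which 13609 had enough reads to be tested. Mild hypoxia changed 1852 of them, or 13.6%, at an adjusted p under 0.05 (edgeR, quasi-likelihood, Benjamini-Hochberg over all genes tested). These differentially expressed genes (DEGs) were 986 upregulated genes (7.25% of those tested) and 866 downregulated genes (6.36%). The downregulated genes moved further, since 537 of them and 315 of the upregulated genes differed by more than 1 on the log2 scale. In 1138 of the 1852 DEGs, and in 1619 of all 13609 tested genes, every fish of one group lay beyond every fish of the other. Calls and separation come from the same fish, so the first count is no separate support for the calls. The lists with the largest shares of upregulated genes were the V-type ATPase (10 of 18), the proteasome (26 of 47) and ER folding (22 of 57). The collagens (9 of 18) and the immediate-early factors (15 of 57) had the largest shares of downregulated genes, and smaller shares fell among other matrix genes (11 of 59), cell cycle and replication genes (15 of 92) and cytokine genes (9 of 70).

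The split between directions depended on how libraries were scaled. Without the TMM factors, which correct for a few very abundant genes taking a changed share of the reads, the median of all genes moved from 0.00 to 0.28 on the log2 scale and the DEGs became 2560 upregulated and 484 downregulated genes. Without these factors the cell cycle and replication list had 11 rises and 9 falls, and the cytokine list 5 rises and 5 falls. All values below are relative to the TMM scale. The 10 most abundant genes took 31% to 37.2% of the reads in control fish and 25.4% to 30.5% in mild hypoxia fish, without overlap, and the TMM factors were 0.813 to 0.992 in control and 1.01 to 1.17 in mild hypoxia.

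Library totals were 13247842, 12755707, 13150097, 12508864 and 6591150 reads in the control fish and 15404373, 7393074, 6867133, 7188576 and 8466811 in the mild hypoxia fish. The medians differed, but the groups overlapped and the mean log10 totals did not pass an exact two-sided permutation test (p = 0.206, n = 5 per group). All livers had high levels of hepatocyte genes, with a summed 153000 to 237000 CPM (counts scaled to the same TMM-adjusted library size) over 13 markers in control and 117000 to 139000 CPM in mild hypoxia. The gonad markers summed to less than 1 CPM in all 10 fish. The 8 markers of the endocrine pancreas, 3 of them at 0 in every fish, summed to 6.28 CPM in control fish 1 and to at most 0.459 CPM in the other 9 fish. The egg-yolk precursor gene vtg3, which estrogen switches on in liver, stood at 0, 0.579, 17.1, 0 and 66.3 CPM in the control fish and at no more than 0.128 CPM in mild hypoxia. Control fish 3 and 5 stood apart in vtg3. The 6 markers of estrogen-responsive liver together, vtg3 among them, summed to 43.3 to 318 CPM in control and 49.7 to 130 CPM in mild hypoxia, with overlap. The labels do not give the sex of the fish, and its part in the results was not tested.

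**Figure D1:**
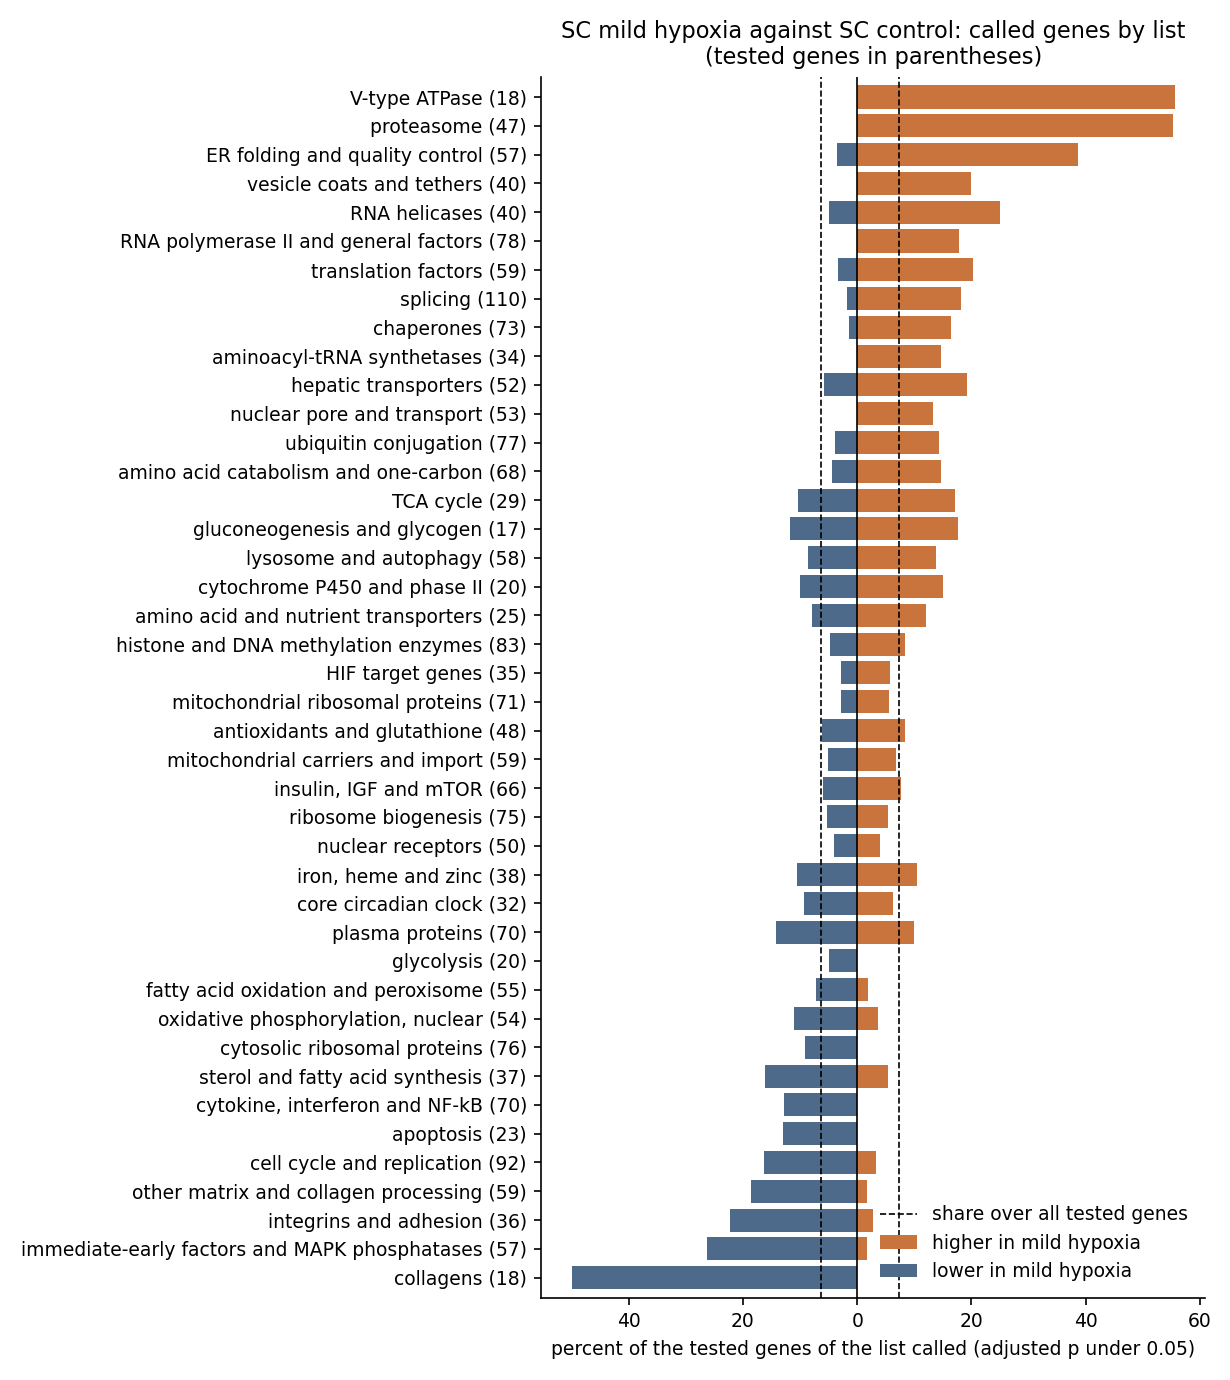
Percent of the tested genes of each list that were called higher (right, orange) or lower (left, blue) in SC mild hypoxia than in SC control liver, with the number tested in parentheses and dashed lines at 7.25% and 6.36%, the shares over all tested genes. The V-type ATPase, proteasome and ER folding lists reach furthest right and the collagens furthest left.

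Among genes with a mean of at least 10 CPM and no overlap between the groups, the 15 largest rises included pdia3 and pdia4, protein disulfide isomerases that fold secreted proteins in the ER, and psma5, a subunit of the proteasome core. For pdia3 (chr2:7557712-7565504, assembly MU-UCD_Fhet_4.1) the control fish had 150, 131, 134, 141 and 64.3 CPM and the mild hypoxia fish 320, 407, 488, 470 and 379 CPM. In pdia3 the log2 difference was 1.73 (SE 0.23, edgeR adjusted p = 2.98e-05). The largest of the 15 was fzd9b (chr18:14148189-14150725), a Wnt receptor of the frizzled family, at 12.1 ± 2.93 CPM in control and 45.4 ± 9.54 CPM in mild hypoxia (SD, n = 5 each).

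The other upregulated genes of that set came from many pathways, with separation of the groups again a condition of the set. ralgapa2, a subunit of a GTPase-activating complex for Ral, rose from a mean of 8.46 to 25.9 CPM. eevs, an enzyme fish use to make the sunscreen compound gadusol, rose from 99.4 to 373 CPM, with a wide spread in mild hypoxia (187 to 668 CPM). galnt16, which starts O-linked sugar chains, rose from 19.3 to 49.7 CPM. xrn2, an exonuclease that ends transcription, rose from 8.86 to 22.5 CPM, and rtcb, the ligase that joins tRNA and xbp1 exons, from 8.13 to 20.5 CPM. lonrf1, sec14l7, lmbrd2b and wu:fj16a03 rose by 1.35 to 1.54 on the log2 scale. The glycogen-targeting phosphatase subunit ppp1r3cb rose by 1.34, but its call was lost in 7 of the 10 fits that each left out 1 fish.

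Among the 15 largest falls, chosen at the same minimum level and again with no overlap between the groups, were collagens and genes of muscle and lipid metabolism. The largest of these 15 was that of crema (chr6:33738077-33757719), which encodes a cAMP-responsive element modulator. Its control values were 124, 3.67, 7.5, 6.89 and 7.66 CPM and its mild hypoxia values 1.35, 1.92, 1.08, 0.951 and 0.933 CPM. Control fish 1 stood far above the other controls. Separation of the groups was a condition of this set, and crema kept its call in each of the 10 fits that left out 1 fish. Its log2 difference was -4.58 (SE 0.90, edgeR adjusted p = 0.00128) and -2.35 without control fish 1. For tdh (chr15:14819265-14826078), threonine dehydrogenase, control fish had 187, 55.2, 54.8, 134 and 107 CPM and mild hypoxia fish 18.5, 7.3, 8.52, 6.42 and 8.74 CPM. Control fish 1 was also the highest for adm2a, a vasodilator peptide (420 CPM against 39.2 to 148 in the other controls and 5.54 to 30.1 in mild hypoxia), and for sik1, a kinase that cAMP induces (111 CPM against 17.9 to 25.7 and 4.6 to 15). Without that fish sik1 fell by 1.61 on the log2 scale in place of 2.42.

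Further falls included elovl5, an elongase of polyunsaturated fatty acids, from a mean of 740 to 136 CPM, and atp5if1, an inhibitor of the mitochondrial ATP synthase, from 41.1 to 7.95 CPM. s100a10a, a partner of annexin A2, fell from 19.6 to 4.32 CPM and sall1a, a zinc finger factor, from 74.2 to 17.2 CPM. Myoglobin (mb) fell from 63.7 to 9.7 CPM, tmsb1 from 53.4 to 9.98 CPM and pvalb3, a muscle calcium buffer, from 19.3 to 2.68 CPM. These last calls were lost in some leave-one-out fits: 5 of 10 lost the call of mb, 3 that of tmsb1 and 7 that of pvalb3. The log2 difference of mb stayed between -2.98 and -2.48 in these fits, and that of tmsb1 between -2.86 and -1.80. That of pvalb3 went from -2.85 to -1.78 without control fish 3. Skeletal muscle markers summed to 29.9 to 179 CPM in control and 9.19 to 27.4 CPM in mild hypoxia, and the part of muscle RNA in these falls was not tested.

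**Figure D2:**
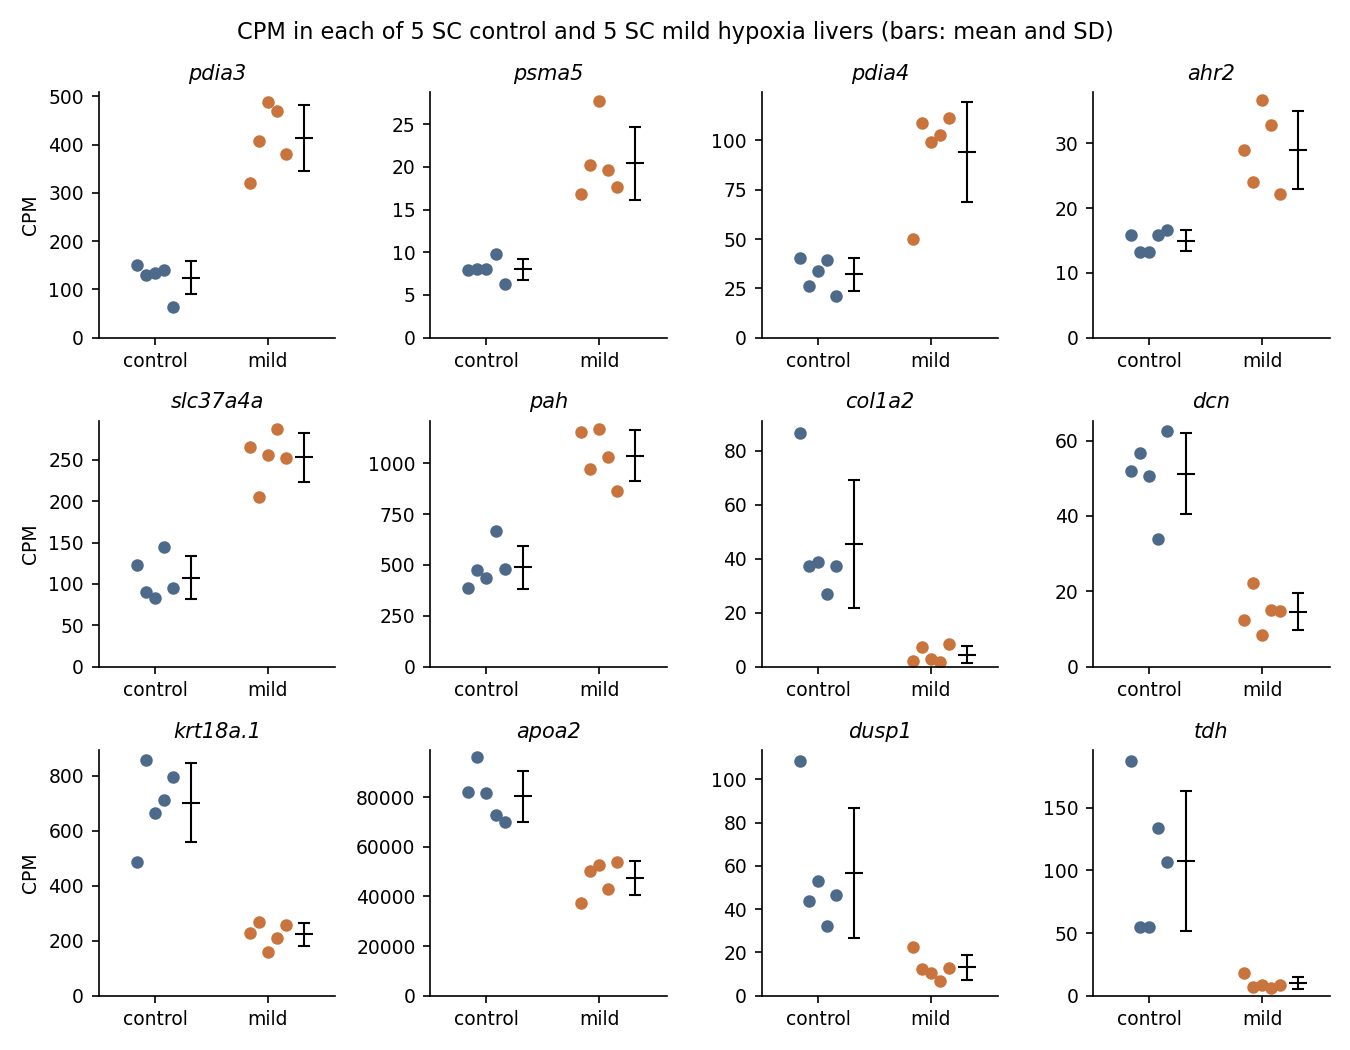
CPM of 12 genes in each of 5 SC control (blue) and 5 SC mild hypoxia (orange) livers, with the mean and SD of each group beside the points and every vertical axis starting at 0. In none of the 12 genes do the groups overlap. For pdia3, psma5, pdia4, col1a2, dusp1 and tdh this was a condition of their choice.

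The oxygen-sensing genes themselves gave few calls at this oxygen level, with a median log2 difference of 0.46 against 0.00 over all genes. The share called higher was 9.09% against 7.25% over all genes. Several were at 2.2 CPM or lower in control, where few reads were counted and a missing call does not show that a gene stayed the same. Of 11 tested genes for HIF subunits, their partners and the hydroxylases, epas1a (HIF-2 alpha) was called higher, at 2.2 CPM in control and 3.98 CPM in mild hypoxia (log2 difference 0.86, SE 0.29, edgeR adjusted p = 0.042), and the groups overlapped. Its call was lost in 8 of 10 leave-one-out fits. hif1aa (HIF-1 alpha) was 42.4 CPM in control and 33.8 CPM in mild hypoxia (adjusted p = 0.196), and hif1al was 72.2 and 47.3 CPM (adjusted p = 0.218). The hydroxylase gene egln1a was 1.7 and 2.29 CPM (adjusted p = 0.32) and egln2 was 4.09 and 2.59 CPM (adjusted p = 0.371), all by edgeR. None of these 4 passed the threshold.

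The hydroxylase gene egln3 (chr19:33648879-33661406) is a well-known HIF target. It was 0.661, 0.483, 0.625, 0.172 and 0.153 CPM in control fish and 0.645, 0.64, 1.35, 0.356 and 1.86 CPM in mild hypoxia fish, overlapping and not called (log2 difference 1.10, SE 1.06). In severe hypoxia egln3 ranged from 9.22 to 504 CPM, with a median of 156, and every severe fish lay above every mild fish. The test of severe against mild hypoxia gave a log2 difference of 7.69 for egln3 (edgeR adjusted p = 2.08e-05).

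Of 35 tested HIF target genes mild hypoxia raised 2 and lowered 1, near the 7.25% and 6.36% over all genes. ero1a, the oxidase that hands electrons from disulfide isomerases to oxygen, rose from 20.7 to 47.9 CPM without overlap (log2 difference 1.21, SE 0.26). ndrg1a rose from 55.9 to 112 CPM with overlap, and its call was lost in 6 of 10 leave-one-out fits. bhlhe40, a repressor of the clock, fell from 5.62 to 2.38 CPM, a call lost in 7 of those fits, and was 17.6 to 71.2 CPM in severe hypoxia. pfkfb3, an activator of glycolysis, was 0.751 CPM in control and 0.215 CPM in mild hypoxia without passing the test (adjusted p = 0.167), and was higher in severe than in mild hypoxia by 4.47 on the log2 scale (edgeR adjusted p = 0.00115). Of 20 tested glycolysis genes none rose and 1 fell, with 3 rises without control fish 2, 1 without control fish 4 or mild hypoxia fish 5 and 4 without the TMM factors. The 1 fall was lost without any one of mild hypoxia fish 1, 2 and 3 and control fish 1, 2, 3 and 5. The lactate dehydrogenase gene ldhba was 1386 CPM in control and 1173 CPM in mild hypoxia and was not called, and gapdh was 5681 ± 1590 CPM in control and 6233 ± 1207 CPM in mild hypoxia (SD, n = 5 each).

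The aryl hydrocarbon receptor gene ahr2 (chr24:6267335-6299934), whose product binds dioxins and shares the partner ARNT with HIF, was upregulated. Control fish had 15.8, 13.2, 13.2, 15.9 and 16.7 CPM and mild hypoxia fish 29, 24.1, 36.8, 32.8 and 22.1 CPM. The groups did not overlap, and ahr2 rose by 0.95 on the log2 scale (SE 0.17, edgeR adjusted p = 0.000717). arnt was 2.06 and 3.24 CPM and was not called (adjusted p = 0.273). arnt2 (0.844 and 0.875 CPM), epas1b (0.262 and 0.737 CPM) and hif1an, which encodes another HIF hydroxylase (5.4 and 5.12 CPM), were not called either.

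Other genes the study singles out were lower in mild hypoxia. hsd11b2, whose product inactivates cortisol, fell from 5.17 to 1.82 CPM without overlap, and foxred1, an assembly factor of respiratory complex I, from 24.9 to 15.5 CPM without overlap. agmo, which cleaves ether lipids, fell from 86.8 to 32.4 CPM (edgeR adjusted p = 0.0325) and bdh1, an enzyme of ketone body metabolism, from 28.7 to 16.4 CPM (edgeR adjusted p = 0.0235), both with overlap. Leaving out 1 fish ended the call of agmo in 7 of 10 fits and those of bdh1 and foxred1 in 3 each, and all 3 calls were lost without TMM factors.

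**Figure D3:**
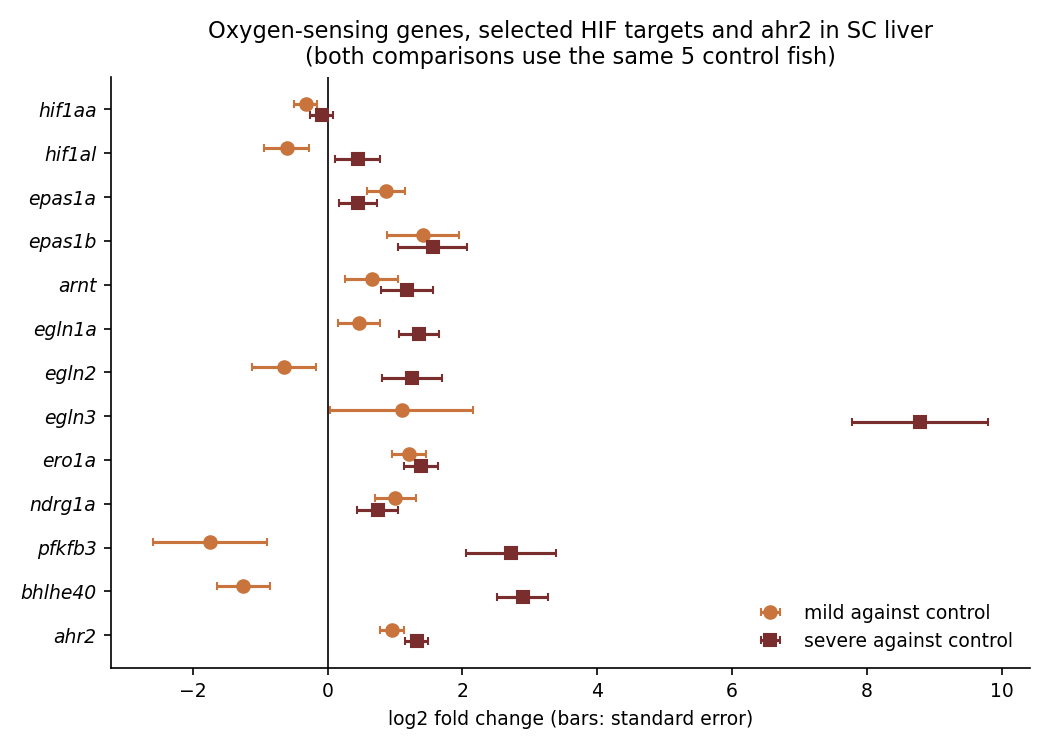
Log2 fold change with its standard error for HIF subunits, hydroxylases, selected HIF targets and ahr2 in SC liver, for mild hypoxia against control (orange circles) and severe hypoxia against the same control fish (dark squares). egln3 lies at 1.10 in mild and at 8.79 in severe hypoxia, while ero1a, ndrg1a and ahr2 lie close together in both.

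The proteasome is the barrel-shaped protease that destroys ubiquitin-tagged proteins. Of its 47 tested genes 26 rose and none fell, 55.3% against the background of 7.25%, with a median log2 difference of 0.65 against 0.00 over all genes. Leaving out each fish in turn gave 22 to 27 upregulated genes. The 19S regulator, which binds and unfolds the tagged proteins, rose in 15 of 21 genes (median 0.98), and the 20S core, which cuts them, in 9 of 17 (median 0.56). Activators and assembly factors rose in 2 of 9 (median -0.08). psma5 (chr20:28289548-28295695) had 7.93, 8.01, 8.03, 9.83 and 6.28 CPM in control and 16.9, 20.2, 27.7, 19.6 and 17.6 CPM in mild hypoxia. All mild hypoxia fish were above all control fish for psma5, and the same held for the ATPase subunits psmc1b (15.4 to 34.6 CPM, group means) and psmc2 (20.4 to 45 CPM) and for psmd8 (7.73 to 17.3 CPM). None of the 47 genes was called between severe and mild hypoxia, near the 2.02% higher and 0.882% lower over all genes.

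Of 77 genes that attach and remove ubiquitin, 11 rose (14.3% against 7.25% over all genes) and 3 fell (3.9% against 6.36%). The conjugating enzyme genes ube2e1 (7.31 to 16 CPM) and ube2q1 (5.34 to 14.1 CPM) rose, as did uba1, the activating enzyme that starts the chain (5.81 to 11.1 CPM). The call of uba1 was lost in 5 of 10 leave-one-out fits. The deubiquitinase gene usp20 fell from 25.1 to 14.2 CPM, a call that 7 of those fits lost. The 11 rises were 6 without control fish 3 or 5 and 7 without mild hypoxia fish 4.

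Protein folding in the ER was the next group. Of 57 tested genes for ER chaperones, disulfide enzymes, the translocon and ER-associated degradation, 22 rose (38.6%) and 2 fell, with a median of 0.52. Chaperones, oxidases and translocon genes rose in 16 of 37 and sensors and degradation genes in 6 of 20. hspa5, the main ER chaperone (BiP), rose from 26.3 to 60.4 CPM, and nploc4, which helps to pull failed proteins out of the ER, from 3.15 to 7.64 CPM. hsp90b1, the ER form of HSP90, rose from 68.3 to 165 CPM, a call lost when control fish 3 or control fish 5 was left out. The ER stress pseudokinase gene trib3 went the other way, from 8.18 to 2 CPM without overlap, and stood at 19 to 24.2 CPM in severe hypoxia.

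In the wider list of chaperones 12 of 73 genes rose (16.4%) and 1 fell, with 6 or 7 rises without control fish 3 or 5 or mild hypoxia fish 1 or 4. bag4, a cochaperone of HSP70, rose from 9.01 to 20.7 CPM. The 1 that fell was dnajc19, a part of the mitochondrial import motor, from 187 to 72.3 CPM without overlap. The coats and tethers that carry vesicles between ER and Golgi rose in 8 of 40 genes (20% against 7.25% over all genes) and fell in none. Among the rises were copa (25.6 to 42.1 CPM) and copb2 (19.4 to 31.4 CPM), both of the COPI coat. Of these 8 rises 4 or 5 were called without mild hypoxia fish 1 or 3 or control fish 2 or 5.

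The V-type ATPase, the proton pump that acidifies lysosomes, rose in 10 of 18 tested genes (55.6%) and fell in none, with a median of 0.57. atp6v1h rose from 7.38 to 13.6 CPM, atp6v0e1 from 9.75 to 17.9 CPM and atp6v0d1 from 11.9 to 21.6 CPM. Leave-one-out fits gave 6 to 11 upregulated pump genes, with 6 without mild hypoxia fish 3, control fish 2 or control fish 3. Of the lysosome and autophagy genes 8 of 58 rose (13.8% against 7.25% over all genes) and 5 fell (8.62% against 6.36%). map1lc3a, which coats autophagosomes, rose from 35.5 to 76.4 CPM and the lysosomal galactosidase glb1 from 3.03 to 7.1 CPM. Those counts fell to 4 rises without control fish 3 and to 2 falls without mild hypoxia fish 3 or 4. The protease gene ctsf fell from 5054 to 2196 CPM, and all of its mild hypoxia fish were below all control fish.

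Among RNA-handling genes most did not pass the test. The shares over all genes were 7.25% higher and 6.36% lower. Splicing genes rose in 20 of 110 (18.2%) and fell in 2. Of the 20 rises 17 were among the 59 genes for the U2 and SF3 factors and small nuclear ribonucleoproteins, and 3 among the 51 SR proteins and hnRNPs (5.88%, median 0.00). snrpa1, a U2 protein, rose from 5.45 to 10 CPM, eftud2, a GTPase of the U5 particle, from 6.09 to 11.1 CPM and the splicing regulator srsf3b from 12.3 to 23.1 CPM. RNA helicases rose in 10 of 40 and fell in 2. ddx1, ddx39ab and ddx23 rose by 0.90, 0.87 and 0.73 on the log2 scale without overlap, and ddx3xb fell by 0.77. RNA polymerase II and its general factors rose in 14 of 78 genes and fell in none, with polr2b, the second largest subunit, at 17.5 CPM in control and 29.3 CPM in mild hypoxia. Nuclear pore and transport genes rose in 7 of 53, among them nup93 (5.54 to 11.6 CPM). Leaving out 1 fish gave 7 to 12 upregulated polymerase genes, with 9 or fewer without any one of mild hypoxia fish 1, 3 and 4 and control fish 1, 2, 3 and 5. Pore genes were 2 to 6, with 4 or fewer without any one of the same fish other than mild hypoxia fish 1.

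For translation, 12 of 59 factor genes rose (20.3% against 7.25% over all genes) and 2 fell (3.39% against 6.36%). The cap-binding factors eif4g1a (33.3 to 56.4 CPM) and eif4eb (11.6 to 19.8 CPM) rose, while eif4ebp2, which blocks the cap-binding factor, fell from 78.4 to 40.4 CPM. All 3 were without overlap. Aminoacyl-tRNA synthetases, which load amino acids onto tRNA, rose in 5 of 34 genes, with wars1 from 5.03 to 8.55 CPM and cars1 from 4.18 to 8.32 CPM. Only 2 of these 5 rises were called without mild hypoxia fish 4 or control fish 1, 3 or 5, and 3 without mild hypoxia fish 5. None of 76 cytosolic ribosomal protein genes rose and 7 fell (9.21% against 6.36%), with a median of -0.06 that became 0.22 without the TMM factors, and leave-one-out fits gave 3 falls without mild hypoxia fish 3 or 4 or control fish 3, 4 without mild hypoxia fish 2 and 13 without mild hypoxia fish 5. rpl29 fell from 3584 to 1321 CPM, with no overlap. Mitochondrial ribosomal proteins (4 of 71 higher, 2 lower) and ribosome biogenesis (4 of 75 higher, 4 lower) were near the background. Without the TMM factors 19 and 22 of them were higher. The mitochondrial rises were 2 without mild hypoxia fish 3 or control fish 3 or 5 and 7 without control fish 4. The biogenesis rises were 0 without mild hypoxia fish 3 or 4 or control fish 1 or 3, 1 without mild hypoxia fish 1 or control fish 4 and 2 without control fish 5, and the falls 2 without mild hypoxia fish 2 or control fish 2.

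In glucose metabolism, genes of glucose output moved in different directions. slc37a4a (chr18:10937171-10943473), which carries glucose-6-phosphate into the ER for release as glucose, had 123, 90.5, 83.5, 145 and 94.6 CPM in control fish and 265, 205, 256, 287 and 252 CPM in mild hypoxia fish. Its groups were well apart (log2 difference 1.24, SE 0.22, edgeR adjusted p = 0.000599). Pyruvate carboxylase (pcxb), the first step of gluconeogenesis, rose from 234 to 543 CPM, and fbp1b, fructose-bisphosphatase, fell from 5128 to 2945 CPM, both without overlap. Over the list 3 of 17 genes rose (17.6% against 7.25% over all genes) and 2 fell (11.8% against 6.36%), with 1 fall when any 1 fish was left out.

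In the mitochondrion 5 of 29 genes of the TCA cycle rose (17.2% against 7.25% over all genes) and 3 fell (10.3% against 6.36%). Only 1 fall was called without mild hypoxia fish 1, and without TMM factors 10 genes rose and 0 fell. sdha, the flavoprotein of succinate dehydrogenase, rose from 35 to 68.4 CPM and sucla2 from 6.07 to 10.8 CPM. Nuclear genes of oxidative phosphorylation fell in 6 of 54 (11.1% against 6.36% over all genes) and rose in 2 (3.7% against 7.25%). Without TMM factors 4 fell and 7 rose, and with the log10 library total as a covariate 5 fell and 5 rose. atp5po, the stalk protein of ATP synthase, fell from 758 to 338 CPM and ndufa11 of complex I from 93.8 to 48.4 CPM. Of 13 genes of the mitochondrial genome ND3 was called lower, a call lost in 4 of 10 leave-one-out fits, and COX1 was 19850 ± 3164 CPM in control and 16160 ± 4605 CPM in mild hypoxia (SD, n = 5 each, adjusted p = 0.545 by edgeR). Fatty acid oxidation genes were near the background, with 1 of 55 higher and 4 lower, and 1 or 2 lower without mild hypoxia fish 1 or 5 or control fish 1 or 3.

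Sterol and fatty acid synthesis fell in 6 of 37 genes (16.2% against 6.36% over all genes) and rose in 2 (5.41% against 7.25%). sc5d, a late enzyme of cholesterol synthesis, fell from 62.9 to 25.9 CPM without overlap. elovl6, the elongase of saturated fatty acids, went the other way and varied widely, at 4.22, 27.4, 7.32, 13.2 and 6.58 CPM in control fish and 14.9, 93.8, 186, 43.9 and 49.5 CPM in mild hypoxia fish. The groups overlapped in elovl6 through control fish 2, and leaving out control fish 1, 3 or 5 or mild hypoxia fish 3 ended its call. In amino acid breakdown 10 of 68 genes rose (14.7%) and 3 fell (4.41%). Phenylalanine hydroxylase (pah) rose from 487 to 1037 CPM without overlap and sarcosine dehydrogenase (sardh) from 5.19 to 13.8 CPM. The 10 rises were 6 without control fish 1.

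In the iron and heme list 4 of 38 genes rose and 4 fell (10.5% each), near the 7.25% and 6.36% over all genes. The falls were 2 without mild hypoxia fish 1, 3 or 4 or control fish 3. cpox, an enzyme of heme synthesis, rose from 2.29 to 8.82 CPM, and slc11a2, which brings iron into cells, fell from 76.2 to 24.6 CPM, both without overlap. The antioxidant list was near the background (4 of 48 higher, 3 lower), with gclc, the first enzyme of glutathione synthesis, at 10.2 CPM in control and 16.8 CPM in mild hypoxia.

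Some of the most abundant RNAs, several of them for lipid carriers, were lower, while others, among them RNAs of plasma proteins, were not called. apoa2, an apolipoprotein of high-density particles, had 81970, 96010, 81430, 72610 and 69750 CPM in control fish and 37420, 50170, 52690, 42970 and 53760 CPM in mild hypoxia fish. Every mild hypoxia fish was below every control fish for apoa2, and the same held for the fatty acid carrier fabp10a (24200 to 12560 CPM, group means), for apobb.1 (13350 to 8960 CPM) and for apoc4 (1027 to 341 CPM). Another lipoprotein gene, apoc2, the cofactor of lipoprotein lipase, rose from 509 to 1213 CPM. apoda.2 (chr6:24529329-24530675), of the apolipoprotein D family, rose without overlap, at 0.909, 0.483, 0.357, 0.0862 and 0.613 CPM in control and 30.8, 8.45, 5, 13.4 and 6.88 CPM in mild hypoxia. Of 25 carriers and apolipoproteins 7 fell (28% against 6.36% over all genes) and 3 rose (12% against 7.25%). Of 29 clotting genes 2 fell (6.9%) and 3 rose (10.3%), near the shares over all genes. apobb.1 lost its call without the TMM factors, while apoa2, apoc4 and fabp10a kept theirs.

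Among hepatic transporter lists, RNA of the ABC genes was higher in 8 of 27 (29.6% against 7.25% over all genes) and lower in 2. abcf3, a family member without a membrane part, rose from 5.01 to 12.1 CPM. The 2 that fell were abcg5, one subunit of the sterol exporter, from 32.7 to 10.1 CPM, and abcc6a from 148 to 58.8 CPM. Of 25 bile acid and organic ion carriers 2 rose (8%), among them slc22a6l (249 to 516 CPM), and 1 fell (4%), near the 7.25% and 6.36% over all genes. The histone and DNA methylation enzymes were near the background (7 of 83 higher, 4 lower, 4 higher without control fish 3, and 2 lower without mild hypoxia fish 3 or 4 or control fish 5), with kdm6ba, a histone H3 demethylase, falling from 17.1 to 7.76 CPM and hdac8, a histone deacetylase, rising from 4.29 to 8.88 CPM.

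Collagens form the fibres of the matrix. Of 43 collagen genes 18 had enough reads to be tested, and 9 of these fell and none rose (50% against 6.36%), with a median of -1.36. Leave-one-out fits gave 9 or 10 falls. For col1a2 (chr13:9652384-9671505), a chain of type I collagen, control fish had 86.8, 37.5, 38.9, 27 and 37.2 CPM and mild hypoxia fish 1.94, 7.42, 2.84, 1.66 and 8.39 CPM. The groups were far apart in col1a2, a log2 difference of -3.37 (SE 0.44, edgeR adjusted p = 2.97e-05). The other chains of the same collagen, col1a1a and col1a1b, fell from 30.9 to 3.11 CPM and from 32.6 to 3.25 CPM, and col5a1 and col6a2 by 2.11 and 1.87 on the log2 scale.

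Of 59 other matrix genes 11 fell (18.6% against 6.36% over all genes) and 1 rose (1.69% against 7.25%). dcn (chr17:15923543-15946713), the collagen-binding proteoglycan decorin, had 52, 56.8, 50.7, 33.9 and 62.5 CPM in control and 12.4, 22.3, 8.52, 15.1 and 14.8 CPM in mild hypoxia, without overlap. mmp2, a protease that remodels matrix, fell from 24.9 to 6.72 CPM. The 1 that rose was bmp1a, the protease that trims procollagen, from 204 to 406 CPM. Integrins and adhesion genes fell in 8 of 36 (22.2%) and rose in 1 (2.78%). Among the falls, nectin1b went from 28.4 to 7.42 CPM and the desmosome gene dsc2l from 41.6 to 16 CPM.

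Markers of stellate cells, leukocytes and erythrocytes were lower in part, while none of the 7 tested markers of exocrine pancreas, 4 of adipocytes and 3 of kidney was called. Over all tested genes 7.25% were called higher and 6.36% lower, and counts out of few markers are coarse beside these shares. Exocrine pancreas markers summed to 65.9 to 531 CPM in control and 208 to 401 CPM in mild hypoxia. Of 4 tested intestine markers 1 was lower, with sums of 341 to 753 CPM in control and 218 to 368 CPM in mild hypoxia. Hepatocyte markers, summed, were also lower without overlap, with 2 of 12 lower and 1 higher. In bulk liver, fewer cells of a type and less RNA per cell cannot be told apart. Of 10 tested markers of stellate cells and fibroblasts 8 were lower, 5 of them collagens already counted above, and the markers summed to 136 to 307 CPM in control and 35.1 to 67.9 CPM in mild hypoxia, without overlap. pdgfra, a growth factor receptor of these cells, fell from 13.6 to 6.23 CPM. Macrophage and leukocyte markers summed to 32.2 to 42.9 CPM and 12.4 to 24.7 CPM, with 3 of 11 lower, among them coro1a (4.12 to 1.24 CPM). Erythrocyte markers fell in 3 of 10 (93.7 to 168 CPM and 61.6 to 107 CPM), with cahz, the red cell carbonic anhydrase, from 22.1 to 7.74 CPM. Bile duct markers fell through krt18a.1 (chr1:5784027-5789164), a keratin that hepatocytes also make, from 702 to 223 CPM, while the bile duct genes epcam (11.2 and 8.83 CPM) and sox9a (3.97 and 2.78 CPM) were not called. Endothelial markers overlapped (71.2 to 79.9 CPM and 52.5 to 77.1 CPM), with cdh5 falling from 21.5 to 9.68 CPM and kdr rising from 3.53 to 6.81 CPM. The part of these cell types in the falls of collagen and cytokine genes was not tested.

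Cytokine, interferon and NF-kB genes fell in 9 of 70 (12.9% against 6.36% over all genes) and rose in none, with a median of -0.45. ccl25b, a chemokine, fell from 95.3 to 40.6 CPM and tnfrsf1a, a receptor of tumour necrosis factor, from 15.5 to 5.1 CPM, both without overlap. Leave-one-out fits gave 5 to 8 falls, with 5 without mild hypoxia fish 3. Without TMM factors 5 cytokine genes fell and 5 rose. In the apoptosis list none of 23 rose and 3 fell (13%), beside 7.25% and 6.36% over all genes. The 3 were tnfrsf1a, named above, its adaptor fadd (6.28 to 2.01 CPM) and diabloa (2445 to 1187 CPM), a mitochondrial activator of caspases.

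Immediate-early genes, transcribed within minutes of a stimulus without new protein synthesis, fell together with the phosphatases that switch MAP kinases off. Of 57 tested genes 15 fell (26.3%) and 1 rose, with a median of -0.74. dusp1 (chr23:25471827-25475098), the phosphatase that shuts down stress kinases, had 108, 43.8, 52.8, 32.2 and 46.4 CPM in control fish and 22.6, 12.4, 10.7, 6.65 and 12.9 CPM in mild hypoxia fish. The groups did not overlap for dusp1 (log2 difference -2.11, SE 0.37, edgeR adjusted p = 0.000449). ier2b (chr13:2377813-2379378) had 23.7, 15, 20.8, 10.2 and 29.7 CPM in control and 4.28, 4.99, 4.6, 4.4 and 4.78 CPM in mild hypoxia, a narrow range far below the control fish. fosab, a component of the AP-1 factor, chosen after its values were seen, had 26.2, 1.74, 9.19, 1.29 and 7.81 CPM in control and 0, 0.128, 0.135, 0 and 0.466 CPM in mild hypoxia. klf11a fell from 5.41 to 0.681 CPM and egr1 from 14.8 to 1.47 CPM, the latter with overlap. Without control fish 5 the log2 difference of egr1 went from -3.33 to -2.10 and its call was lost. Leaving out 1 fish gave 8 to 14 falls in the list, with 8 without mild hypoxia fish 4 and 9 without control fish 5. Without control fish 1, which stood highest for crema, sik1 and dusp1, 12 genes of the list fell.

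Severe hypoxia was tested directly against mild hypoxia. SC severe libraries held 17914396 to 23849931 reads and SC mild libraries 6867133 to 15404373, without overlap. Depth and oxygen level therefore cannot be told apart in this test. Of all tested genes 275 (2.02%) were higher and 120 (0.882%) lower in severe than in mild hypoxia. Of the 1852 DEGs against control, 89 were called in this test, in either direction. Both tests use the same 5 mild hypoxia fish, so a low value in these fish bears on both results. In the immediate-early list 16 of 57 were higher and none lower, and 6 of the 15 genes that fell in mild hypoxia were among the 16. The other 9 were not called, among them sik1 (adjusted p = 0.105 by edgeR) and klf11a, at 0.681 CPM in mild and 0.344 CPM in severe hypoxia. dusp1 was 96.3 to 110 CPM in severe hypoxia, above all 5 mild hypoxia fish (log2 difference 2.94, edgeR adjusted p = 3.17e-05), and ier2b was 27 to 143 CPM, again above all 5 (log2 difference 4.03, adjusted p = 0.000211). crema was 7.61 to 16.2 CPM in severe hypoxia and fosab 0.878 to 22.5 CPM, with every severe fish above every mild fish in both. sall1a was 57.6 to 196 CPM, while tdh spread from 11.4 to 94.6 CPM and met the range of mild hypoxia. jun was 1.1 CPM in control and 1.5 CPM in mild hypoxia without a call, and higher in severe than in mild hypoxia by 4.30 (adjusted p = 0.000223 by edgeR). The phospholipase gene pla2g3 fell further, from 69.7 CPM in control to 20.2 CPM in mild hypoxia, with overlap and a call lost in 4 of 10 leave-one-out fits, and was lower still in severe than in mild hypoxia (log2 difference -2.47, edgeR adjusted p = 0.00842). None of the 18 collagen genes was called between severe and mild hypoxia, near the 2.02% and 0.882% over all genes. The count of 395 genes in this test fell to 201 without mild hypoxia fish 2 and to 242 without mild hypoxia fish 5. With the log10 library total as a covariate the count was 213.

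**Figure D4:**
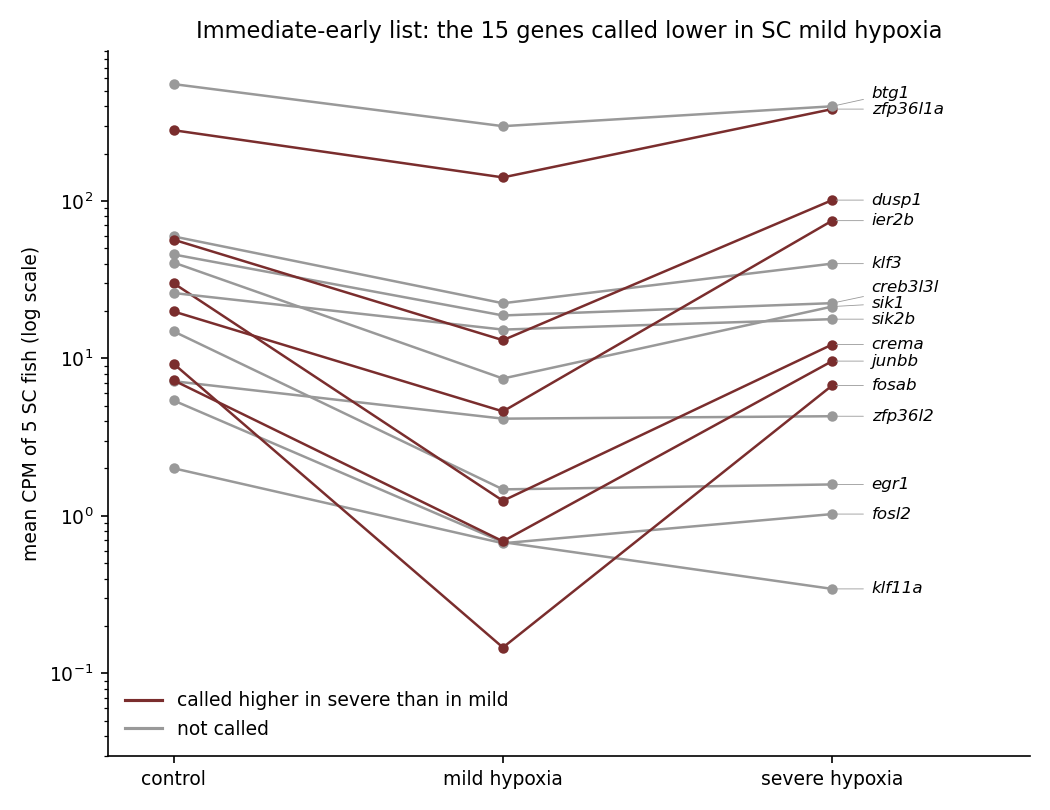
Mean CPM on a log axis of the 15 immediate-early list genes called lower in SC mild hypoxia than in control, in the control, mild and severe hypoxia groups of 5 SC fish each. Red lines mark genes also called higher in severe than in mild hypoxia, such as dusp1 (56.8, 13.1 and 101 CPM), and grey lines the others. Both calls use the same 5 mild hypoxia fish.

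The core circadian clock was near the background in mild hypoxia (2 of 32 higher, 3 lower, with 0 higher without mild hypoxia fish 3 or control fish 3 and 1 lower without mild hypoxia fish 4 or control fish 1), and 12 of the 32 were higher and 3 lower in severe than in mild hypoxia. csnk1da, a kinase that times the clock, fell from 15.2 to 8.35 CPM without overlap. Cell cycle and replication genes fell in 15 of 92 (16.3% against 6.36% over all genes) and rose in 3. Without TMM factors 9 fell and 11 rose, with a median of 0.016 in place of -0.255. mcm2 and mcm4, parts of the helicase that opens replication origins, fell from 1.3 to 0.245 CPM and from 1.22 to 0.293 CPM, and tyms, which makes thymidylate, from 2.11 to 0.388 CPM, all at levels where few reads were counted. plk2b, a kinase induced by stress, fell from 12.7 to 1.66 CPM and wee1, which holds back mitosis, from 8.43 to 2.59 CPM, both without overlap. Leave-one-out fits gave 9 to 18 falls, with 9 without mild hypoxia fish 3.

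Insulin, IGF and mTOR genes were near the background (5 of 66 higher, 4 lower, and 2 higher without mild hypoxia fish 4). The binding protein gene igfbp2a fell from 9.42 to 2.94 CPM without overlap, and foxo1a, a transcription factor that insulin restrains, from 18.5 to 4.71 CPM. mtor was 20.4 CPM in control and 24.4 CPM in mild hypoxia and was not called (adjusted p = 0.389 by edgeR). Neither were akt2 (4.98 and 5.88 CPM) and pik3r1 (72.8 and 73.7 CPM), which act upstream of it. Among carriers of nutrients slc38a2, which brings in neutral amino acids, fell from 114 to 29.5 CPM, and among mitochondrial carriers slc25a33 fell from 143 to 42.7 CPM and slc25a11 rose from 14.5 to 33.7 CPM, all without overlap.

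The NBH fish gave the same measurement in animals that shared no sample with the SC comparison. NBH library totals were 7220318 to 16469578 reads in control and 14340624 to 19074355 in mild hypoxia. NBH mild hypoxia changed 1494 genes upward (11% of those tested) and 1366 downward (10%). Of the 1852 SC genes 1031 were also called in NBH in the same direction, 55.7% of the SC genes and 36% of the 2860 NBH genes, made up of 618 upregulated and 413 downregulated genes. A further 4 genes were called in both populations with opposite signs, and 1772 of the 1852 (95.7%) had the same sign. The same-sign share over all tested genes was not computed, so how far this agreement is particular to the DEGs is not known. With the log10 library total as a covariate the count of 1031 became 611. The median change of the genes raised in SC was 0.83 in SC and 0.69 in NBH, and that of the genes lowered was -1.21 and -0.81, although the SC medians come from the fish the genes were chosen in. pdia3 rose by 1.64 in NBH, psma5 by 1.49 and ahr2 by 1.07, and col1a2 fell by 2.51, all called. The proteasome list had 30 of 47 genes higher in NBH and 3 lower, and the collagens 11 of 18 lower.

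No gene passed the test of the difference between the populations' responses to mild hypoxia (0% called, lowest edgeR adjusted p = 0.106), with 1046 genes at an unadjusted p under 0.05 (7.69% of those tested) and 36 genes called by DESeq2. Values that lay apart without passing it included eevs (1.91 in SC and 0.20 in NBH on the log2 scale), sall1a (-2.11 and -0.14), atp5if1 (-2.37 and -0.32) and ccng2 (-1.40 and 1.11), an inhibitory cyclin that was called in both populations in opposite directions. The call of ccng2 in SC was lost without control fish 1 or mild hypoxia fish 4. A p that misses the threshold does not show that the populations responded alike.

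**Figure D5:**
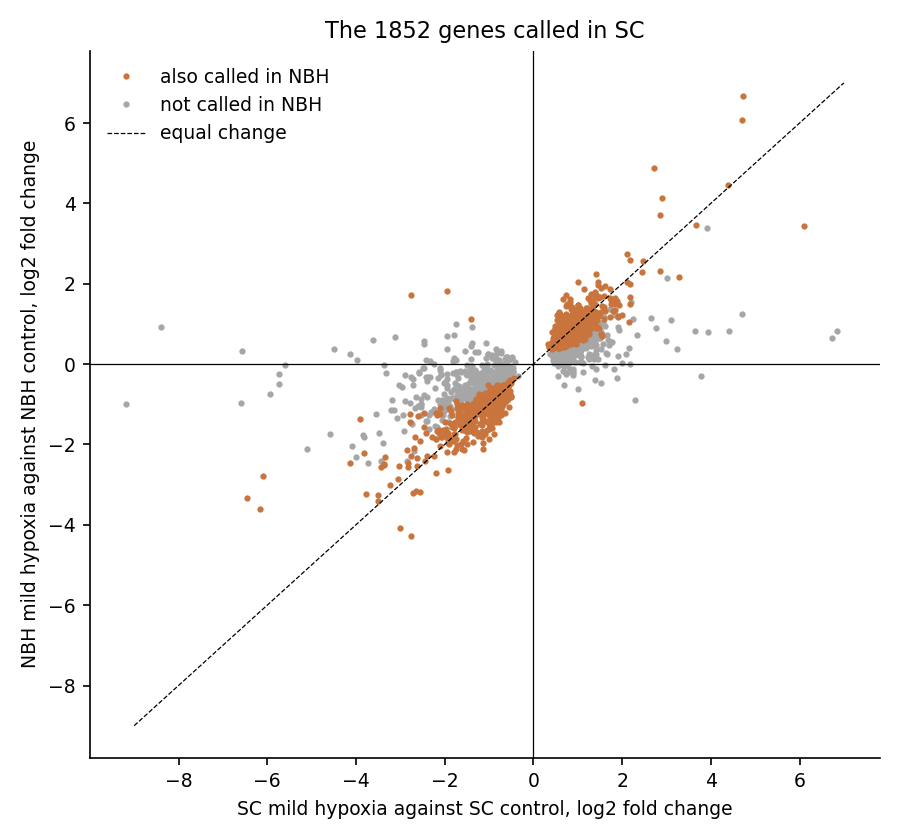
Log2 fold change under mild hypoxia in SC (horizontal) and in NBH (vertical) for the 1852 genes called in SC, with genes also called in NBH in orange and the dashed line marking equal change. Of these, 1772 have the same sign in both populations. The same share over all tested genes was not computed.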

How the data were processed

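Total RNA of 30 livers was sequenced as single-end short reads on a HiSeq from a stranded kit. Per the labels and the study's methods, the authors trimmed reads with Trimmomatic, aligned them to the killifish genome with STAR and deposited raw counts of reads per gene from HTSeq-count, unnormalized. The strand setting of the counting is not given in the sources used here. One table per fish was read. Counts were filtered with filterByExpr, scaled by TMM and fitted with edgeR 4.0.16 (quasi-likelihood, legacy method) over all 30 fish with 1 mean per group. The study used the same filter and test after leaving out 1 outlying NBH hypoxia fish, and a fit without NBH severe hypoxia fish 5, the smallest library, was an alternative. That fit gave 2236 DEGs for SC mild hypoxia against control, 1202 higher and 1034 lower, in place of 1852. The standard error is the log2 fold change over the root of F. CPM use the TMM-scaled library totals. Depth was 6591150 to 15404373 reads in the 10 fish compared. The p-values rest on the spread between fish within groups, estimated over all 30 fish and so also from NBH and severe hypoxia fish. There were 5 fish a group, offspring of few parents. No replicate pair agreed within sampling noise (chi-square per gene at least 30.9).

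Named genes were the 15 largest separated changes each way at a mean of at least 10 CPM, up to 4 called members per list at 5 CPM, genes the study names, and the largest severe against mild differences. In the 15 each way, separation of the groups was a condition and is not a result. Of the members this rule gave, 1 is not reported here and the others not named are covered by the counts of their lists, and 16 further genes were named after their values were seen. The members and lists were chosen with earlier results of these data known. Gene names and coordinates come from RefSeq (MU-UCD_Fhet_4.1), in which 32227 of 34089 names matched. Near-identical gene copies may share reads. The methylation libraries were not used here. The alternatives tried were other scalings, filters, tools (DESeq2 1.42.0, R 4.3.3), fish and covariates.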

Additional observations from a re-analysis of the deposited data

Results flagged for a closer look

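Of 312 groups of 5 values checked with Dixon's test (each named gene and the library total, in SC control and in SC mild hypoxia), 31 held 1 fish apart from the other 4. Chance flags about 1 in 20 groups, and genes that move together are not independent.

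In control fish 1 the values of crema (124 CPM, others 3.67 to 7.66), sik1 (111 CPM, others 17.9 to 25.7), dusp1 (108 CPM, others 32.2 to 52.8), adm2a (420.2 CPM, others 39.2 to 148) and col1a2 (86.8 CPM, others 27 to 38.9) were high, and that of fzd9b was low (6.94 CPM, others 12.8 to 14.4). Control fish 2 was high for tmsb1 (126 CPM, others 30.4 to 45.6). Control fish 3 was high for pvalb3 (59.7 CPM) and apoc4 (1477 CPM). Control fish 4 was high for lonrf1 (8.19 CPM), ndrg1a (98.3 CPM), psmd8 (10.9 CPM), foxred1 (33.4 CPM, others 21 to 24.6) and kdr (3.88 CPM). Control fish 5 was high for vtg3 (66.3 CPM) and egr1 (49.5 CPM) and low for pdia3 (64.3 CPM, others 131 to 150), and it had the smallest control library, 6591150 reads against 12508864 or more.

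Mild hypoxia fish 1 had the largest library of its group (15404373 reads, others at most 8466811), was high for tdh (18.5 CPM) and sik1 (15 CPM) and low for pdia4 (49.9 CPM, others 99 to 111). Mild hypoxia fish 2 was high for COX1 (24210 CPM) and pla2g3 (44 CPM, others 11.4 to 16.1) and low for epas1a (2.05 CPM, others 4.22 to 4.87) and agmo (6.53 CPM, others 35.5 to 46.3). Mild hypoxia fish 3 was high for bhlhe40 (4.05 CPM), nup93 (16.1 CPM) and eif4eb (29.5 CPM). Mild hypoxia fish 4 was low for apobb.1 (7423 CPM) and mild hypoxia fish 5 high for fosab (0.466 CPM, others at most 0.135). What set these fish apart was not tested.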

How the results depend on the processing

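Of 155 named genes, 151 kept their direction in every alternative that tested them, and the 4 that did not were never called. On the log2 scale ldhba (-0.24) was 0.049 without TMM factors and -0.393 to 0.0447 without 1 fish. pik3r1 (0.02) was -0.0102 with DESeq2, -0.00061 with filterByExpr without groups and -0.108 to 0.137 without 1 fish. arnt2 (-0.0043) was 0.29 without TMM factors, 0.0198 with no filter, 0.15 with the log10 library total as a covariate and -0.435 to 0.172 without 1 fish. hif1an (-0.09) was 0.19 without TMM factors and -0.267 to 0.113 without 1 fish. Without TMM factors the DEGs of SC mild hypoxia against control were 3044, with 2560 higher and 484 lower, of which 1469 were among the 1852, and 9 named genes lost their call (bhlhe40, usp20, ddx3xb, csnk1da, diabloa, apobb.1, agmo, bdh1 and foxred1) while epas1b gained one. A test against a log2 change of 1 in place of 0 kept 19 DEGs, 6 higher and 13 lower. The other alternatives gave 1377 to 2247 DEGs. Leaving out 1 fish gave 1250 to 1947 DEGs, 652 to 1041 higher (652 without control fish 3) and 570 to 906 lower (570 without mild hypoxia fish 4).

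The labels do not say whether the replicate numbers pair the fish. The deviations of same-numbered control and mild hypoxia fish correlated at -0.0768 to 0.0705, and no fish correlated best with its own number. With 5 fish a group, such correlations cannot exclude shared parents or handling. A fit with the replicate number as a block over the 10 fish gave 1385 DEGs, 648 higher and 737 lower, of which 1142 were among the 1852, and the same 10 fish without the block gave 1994. For severe against mild hypoxia, 395 genes became 213 with the log10 library total as a covariate and 201 to 384 without 1 fish. SC genes called alike in NBH went from 1031 to 2054 without TMM factors, to 611 with the covariate and to 751 to 1066 without 1 fish. The test between populations called 36 genes with DESeq2, 3 with the covariate, 1 without NBH severe hypoxia fish 5, and 0 to 2 without 1 fish. The difference in mean log10 library total, -0.117, was -0.18 to -0.0924 without 1 fish (exact permutation p = 0.0476 without mild hypoxia fish 1). The causes were not tested.

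With 6591150 to 15404373 reads a fish, genes near 1 CPM rest on few reads.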
